A study of Homo sapiens with 28 samples.

Results

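BHLHE40 and 9 genes of the circadian clock were followed through all 16 RNA-Seq libraries of 2 prostate cancer cell lines. The 10 genes are BHLHE40, BHLHE41, PER1, PER2, PER3, CRY1, CRY2, DBP, NR1D1 and NR1D2. They were chosen by symbol, with earlier results of these data known, and make up 10 of the 19662 gene symbols in each expression table. Shares of all genes set beside their counts are therefore descriptions. No gene of the list was missing, and all 10 passed the limit on low values in both cell lines. The study asked how the transcription factor ONECUT2 takes part in the response of prostate cancer cells to hypoxia. PC3 cells, a line from a bone metastasis, received a control siRNA (siCtrl) or an siRNA against ONECUT2 (siOC2). LNCaP cells, a line from a lymph node metastasis, carried an empty vector or a vector for Flag-tagged ONECUT2. Each arm was kept in normoxia or in a chamber at 0.2% oxygen, with 2 libraries per group. Both siOC2 groups hold siRNA1 as replicate 1 and siRNA2 as replicate 2, so that their spread includes the difference between siRNAs. The time in hypoxia, the hour of harvest and any synchronization of the cells are not given in the sources used here. For the groups other than siOC2 nothing says that the libraries came from separate cultures, so p-values measure only the spread between libraries. In the tests the 4 groups of a line share a single estimate of the spread. In PC3 cells the p-values and standard errors (SE) of siCtrl comparisons therefore also take in the difference between siRNAs.

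The circadian clock of mammalian cells is a feedback loop of transcription. CLOCK and ARNTL, also named BMAL1, bind E-box elements and switch on the PER and CRY genes, whose proteins return to the nucleus and repress CLOCK and ARNTL. BHLHE40 and BHLHE41, also named DEC1 and DEC2, are repressors that compete for the same E-boxes, NR1D1 and NR1D2 (REV-ERB alpha and beta) repress ARNTL, and DBP activates genes through D-box elements. BHLHE40 and BHLHE41 are also known as targets of hypoxia-inducible factors, which bind a short core sequence in hypoxia response elements.

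The promoters of the 4 genes called in at least 1 comparison of hypoxia with normoxia are shown, since these are the genes on which the results turn. Each runs 5′ to 3′ on the strand of the gene and holds the 250 bases before the start of the Ensembl canonical transcript in GRCh37. The windows are chr3:5020872-5021121 on the plus strand for BHLHE40, chr12:26277971-26278220 on the minus strand for BHLHE41, chr17:8055723-8055972 on the minus strand for PER1 and chr12:107487328-107487577 on the minus strand for CRY1. Capitals mark ACGTG or GCGTG on either strand, the core letters of hypoxia response elements, and a full CACGTG E-box where these letters overlap.
BHLHE40: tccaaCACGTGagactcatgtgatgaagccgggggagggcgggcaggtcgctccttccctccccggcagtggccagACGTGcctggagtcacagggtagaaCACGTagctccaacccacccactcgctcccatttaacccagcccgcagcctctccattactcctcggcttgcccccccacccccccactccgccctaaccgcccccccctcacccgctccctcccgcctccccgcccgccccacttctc
BHLHE41: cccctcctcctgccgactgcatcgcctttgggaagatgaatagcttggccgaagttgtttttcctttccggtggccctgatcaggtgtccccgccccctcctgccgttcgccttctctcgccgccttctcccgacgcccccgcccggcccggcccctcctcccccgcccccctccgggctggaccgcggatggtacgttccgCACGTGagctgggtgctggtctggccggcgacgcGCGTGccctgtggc
PER1: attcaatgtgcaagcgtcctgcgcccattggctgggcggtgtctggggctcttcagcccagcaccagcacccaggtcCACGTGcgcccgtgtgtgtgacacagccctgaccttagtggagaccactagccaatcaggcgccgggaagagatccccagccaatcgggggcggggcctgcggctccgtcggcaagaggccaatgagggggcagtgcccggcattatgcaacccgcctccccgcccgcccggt
CRY1: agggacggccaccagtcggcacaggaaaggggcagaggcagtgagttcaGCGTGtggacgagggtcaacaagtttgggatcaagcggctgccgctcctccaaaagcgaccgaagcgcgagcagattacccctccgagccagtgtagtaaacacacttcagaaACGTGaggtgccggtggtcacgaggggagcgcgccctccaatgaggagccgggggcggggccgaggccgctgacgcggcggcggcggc

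The core letters were found in the windows of 9 of the 10 genes, all but NR1D2, and in 51.5% of 19862 promoters of protein-coding genes of the same length. The E-box CACGTG, which contains ACGTG on both strands, was found in BHLHE40, BHLHE41 and PER1 and in 7.88% of all promoters. In BHLHE40 it lay at bases -245 to -240 from the transcript start, in BHLHE41 at -48 to -43 and in PER1 at -173 to -168. The variant CACGTT, searched on both strands, was found in PER2, CRY1, CRY2 and NR1D1 and in 4.46% of all promoters. Read on the other strand it is AACGTG, which also contains ACGTG. The count of core letters is thus not separate from the counts of the E-box and this variant. The ONECUT letters ATCGAT or ATCAAT were found in 0 of the 10 windows and in 4.66% of all promoters. These matches describe letters in a window, and binding was not analysed here.

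The labelled cell lines carried their known markers. The 4 LNCaP markers used (KLK3, KLK2, TMPRSS2 and FOLH1) summed to 2719 to 5840.3 RPKM in the LNCaP libraries and to 0.319 to 5.59 RPKM in the PC3 libraries, where KLK3 was listed at 0. Of the 5 PC3 markers, 5 were expressed in PC3 cells and 1, VIM, in LNCaP cells. RPKM are read counts scaled to the length of the gene and to the mapped reads of the library. ONECUT2 was 1.77 and 1.16 RPKM in normoxic siCtrl libraries and 0.28 and 0.20 RPKM in normoxic siOC2 libraries, and in hypoxia it was 0.65 and 0.55 against 0.13 and 0.21 RPKM. In LNCaP cells ONECUT2 had no value in the overexpression libraries and was left out of the fit, so the overexpression could not be checked. In the empty vector libraries ONECUT2 was 2.89 and 7.86 RPKM in normoxia and 11.5 and 3.09 RPKM in hypoxia, so replicates differed. Of 10 known hypoxia-induced genes such as CA9, 9 were called higher in hypoxia in each PC3 arm, beside 2.23% (siCtrl) and 1.11% (siOC2) of all genes. The exception in both arms was VEGFA, with log2 fold changes of 0.53 and 0.59. In each LNCaP arm all 8 that could be tested were called higher, beside 5.6% and 5.48%. The hypoxia-induced genes were also chosen with earlier results of these data known. Relative sequencing depth, read from the steps between low RPKM, was 0.347 to 0.418 of that of the deepest siCtrl library in 3 PC3 libraries (siOC2 hypoxia siRNA1, siCtrl hypoxia replicate 2 and siCtrl normoxia replicate 1) and 0.877 to 1.15 in the others. In LNCaP cells it was 0.662 to 1.21 of that of empty vector normoxia replicate 1. The 3 shallow PC3 libraries are spread over 3 groups, and results are given without them where that changes a call.

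The levels of some of the 10 genes did not overlap between the lines. BHLHE41 was the highest in PC3 cells, with 72.2 to 379 RPKM, and was 8.01 to 19.2 RPKM in LNCaP cells. PER1, PER2, PER3 and DBP were the reverse, and every LNCaP library lay above every PC3 library. The 8 LNCaP libraries had 8.58 to 14.6 RPKM of DBP and the 8 PC3 libraries 0.52 to 3.47 RPKM. The other 5 genes had ranges that overlapped between the lines. The tables were normalized separately, so these levels stand side by side without a test. The share of all genes that separate the lines in this way was not counted. In normoxic empty vector cells the order ran from NR1D2 (14.2 RPKM, the mean of 2) and PER1 (13.9 RPKM) down to NR1D1 and PER2 (1.89 and 1.88 RPKM), and the libraries of NR1D2 and PER1, and of NR1D1 and PER2, overlapped.

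**Figure D1:**
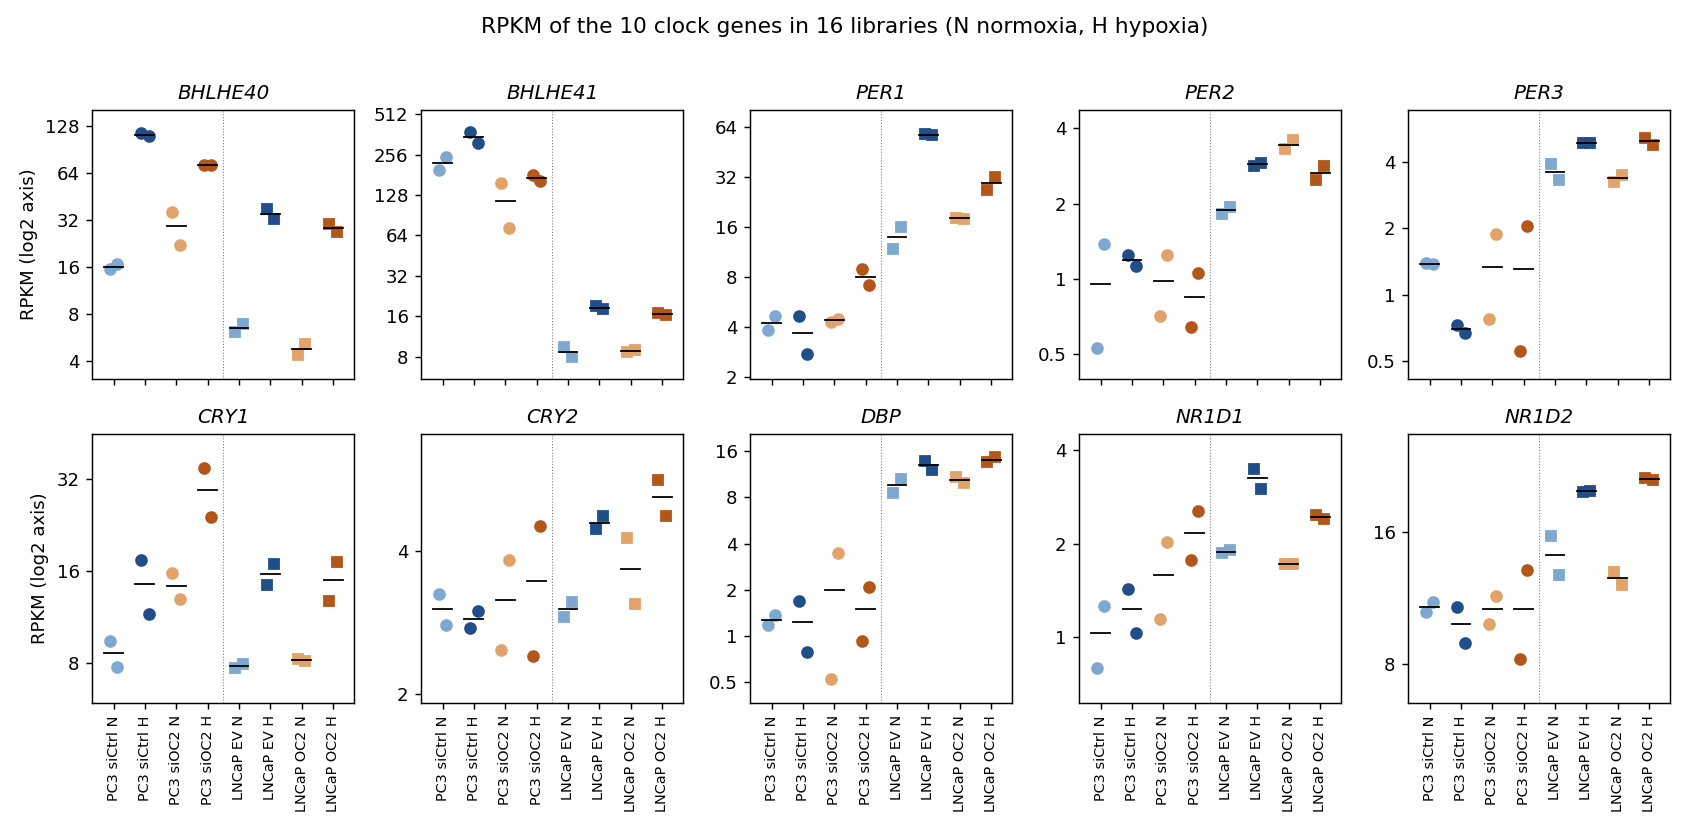
RPKM on a log2 axis for each of the 10 genes, with 1 point per library, circles for PC3 and squares for LNCaP, and a bar at the arithmetic mean of each group of 2 libraries. BHLHE40 was higher in the hypoxic than in the normoxic groups of both lines, and PER1 reached 56.7 to 57.8 RPKM in the hypoxic empty vector libraries.

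To see how the clock genes respond to low oxygen, hypoxia was compared with normoxia within each arm. BHLHE40 rose in all 4 arms, from 2.53-fold in siOC2 to 6.96-fold in siCtrl PC3 cells, and PER1 rose 4.14-fold in empty vector LNCaP cells. Calls required more than a 2-fold difference together with an unadjusted P under 0.05 from limma on log2(RPKM + 0.1), and each adjusted p takes in every gene tested by the Benjamini-Hochberg method. In siCtrl PC3 cells 1 of the 10 genes was called higher and 0 lower, beside 2.23% and 1.63% of all genes tested. In siOC2 PC3 cells 2 were called higher and 0 lower, beside 1.11% and 2.35%. In empty vector LNCaP cells 3 were called higher and 0 lower, beside 5.6% and 2.34%, and in ONECUT2 LNCaP cells 1 higher and 0 lower, beside 5.48% and 1.36%. The median log2 fold change of the 10 genes was 0.09 and 0.27 in siCtrl and siOC2 PC3 cells, beside -0.07 and -0.22 for all genes, and 0.67 and 0.62 in empty vector and ONECUT2 LNCaP cells, beside 0.02 and 0.09 for all genes.

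BHLHE40, on chromosome 3 from 5021122 to 5027008 on the plus strand of GRCh37, showed the largest change of the 10 genes in each arm. In siCtrl PC3 cells it was 15.5 and 16.6 RPKM in normoxia and 114 and 110.2 RPKM in hypoxia. In siOC2 PC3 cells it was 36.1 (siRNA1) and 22.0 RPKM (siRNA2) in normoxia and 71.9 and 71.2 RPKM in hypoxia. The groups did not overlap in either arm, and the normoxic siOC2 libraries were the most spread. The log2 fold change was 2.80 (SE 0.29, adjusted p = 0.0084) in siCtrl and 1.34 (SE 0.29, adjusted p = 0.46) in siOC2 cells. Within siRNA1 the ratio of hypoxia to normoxia was 1.99 and within siRNA2 it was 3.24. Without siRNA2 in normoxia the log2 fold change in siOC2 cells was 0.99, under the call limit. The normoxic siRNA1 library was also the highest of the 4 normoxic PC3 libraries for the 10 hypoxia-induced genes, with a mean log2(RPKM + 0.1) of 4.35, against 3.22 in siRNA2 and 3.71 and 3.65 in siCtrl. Its part in the BHLHE40 result was not tested.

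In LNCaP cells BHLHE40 was 6.17 and 6.89 RPKM in normoxia and 37.4 and 32.5 RPKM in hypoxia with the empty vector. With ONECUT2 it was 4.36 and 5.17 RPKM in normoxia and 30.0 and 26.6 RPKM in hypoxia. Every hypoxic library was above every normoxic one. The log2 fold change was 2.4 (SE 0.14, adjusted p = 3.6e-05) with the empty vector and 2.55 (SE 0.14, adjusted p = 2.4e-05) with ONECUT2. All alternatives and left-out libraries kept the calls in siCtrl PC3 cells and in both LNCaP arms, with adjusted p between 5.5e-06 and 1.0 in siCtrl cells (without the 3 shallow libraries, when 3 groups hold 1 library that is assumed to vary like the others) and between 1.8e-05 and 0.00098 in empty vector cells.

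BHLHE41, the paralog of BHLHE40 on chromosome 12 (26272963 to 26277970, minus strand), rose in empty vector LNCaP cells, from 9.42 and 8.01 RPKM in normoxia to 19.2 and 18.0 RPKM in hypoxia. The log2 fold change was 1.09 (SE 0.12, adjusted p = 0.0005), and 0.97 without empty vector normoxia replicate 2. With ONECUT2 it went from 8.69 and 9.0 RPKM to 17.1 and 16.5 RPKM, a log2 fold change of 0.91 with an adjusted p of 0.0015, under the fold limit. In siCtrl PC3 cells BHLHE41 was 197 and 247 RPKM in normoxia and 379 and 315 RPKM in hypoxia. These libraries did not overlap, but the log2 fold change of 0.65 (SE 0.36) did not pass the test, whose spread is shared with the siOC2 libraries. Because BHLHE40 changed more than BHLHE41, the ratio of BHLHE41 to BHLHE40 went from 12.7 and 14.9 in normoxic to 3.32 and 2.86 in hypoxic siCtrl PC3 cells. In empty vector LNCaP cells it went from 1.53 and 1.16 to 0.515 and 0.555, so that BHLHE40 had the higher RPKM of the pair in hypoxic LNCaP cells only. The longest stretch of identical bases in the transcripts of the pair is 16 bases.

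Among the period genes, which code for the PER repressors of CLOCK and ARNTL, PER1 had the largest change. In empty vector LNCaP cells it was 11.8 and 16.1 RPKM in normoxia and 57.8 and 56.7 RPKM in hypoxia. With ONECUT2 it was 18.1 and 17.9 RPKM in normoxia and 26.7 and 31.8 RPKM in hypoxia. Both pairs of groups were apart, with the highest values in hypoxic empty vector cells. The log2 fold change was 2.05 (SE 0.15, adjusted p = 8.9e-05) with the empty vector and 0.69 (adjusted p = 0.014), under the fold limit, with ONECUT2.

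In PC3 cells PER1 was lower throughout. It was 3.84 and 4.65 RPKM in normoxia and 4.67 and 2.74 RPKM in hypoxia in siCtrl cells, and the libraries overlapped. In siOC2 cells it was 4.29 and 4.49 RPKM in normoxia and 8.87 and 7.13 RPKM in hypoxia, which were apart, with a log2 fold change of 0.84 that was under the fold limit.

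PER2 and PER3 were weakly expressed. PER2 was 1.82 and 1.94 RPKM in normoxic and 2.84 and 2.91 RPKM in hypoxic empty vector LNCaP cells. With ONECUT2 it was 3.31 and 3.59 RPKM in normoxia and 2.50 and 2.82 RPKM in hypoxia. The hypoxic libraries were thus above the normoxic ones with the empty vector and below them with ONECUT2, with log2 fold changes of 0.59 (adjusted p = 0.024) and -0.36 (adjusted p = 0.12). PER3 was 3.25 to 3.92 RPKM in the 4 normoxic and 4.78 to 5.12 RPKM in the 4 hypoxic LNCaP libraries, which did not overlap. In PC3 cells PER2 was 0.53 to 1.38 RPKM and PER3 0.56 to 2.05 RPKM, with normoxic and hypoxic libraries of PER3 apart only in siCtrl cells, where both normoxic libraries were at 1.38 RPKM and the hypoxic ones at 0.73 and 0.67 RPKM.

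CRY1, which codes for a cryptochrome that represses CLOCK and ARNTL, was higher in hypoxia in all 4 arms, and the libraries of each arm did not overlap. In empty vector LNCaP cells it was 7.68 and 7.92 RPKM in normoxia and 14.4 and 16.9 RPKM in hypoxia, and with ONECUT2 it was 8.27 and 8.13 against 12.8 and 17.1 RPKM. The log2 fold changes of 0.99 (adjusted p = 0.0027) and 0.84 (adjusted p = 0.0066) lay just under the fold limit. In PC3 cells CRY1 was 9.45 and 7.78 RPKM in normoxia and 17.4 and 11.6 RPKM in hypoxia with siCtrl, and 15.7 and 12.9 against 34.6 and 24.05 RPKM with siOC2. Of these 4 comparisons the one in siOC2 cells was called, at a log2 fold change of 1.01 (SE 0.32, adjusted p = 0.72). It was 0.75 without the shallow library of siRNA1 in hypoxia, or without all 3 shallow libraries, 0.97 with a pseudocount of 1 and 0.87 without siRNA2 in normoxia, and then under the limit. CRY2, its paralog, was 2.90 to 5.61 RPKM in LNCaP and 2.4 to 4.50 RPKM in PC3 cells, and was called in 0 of the 4 comparisons.

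**Figure D2:**
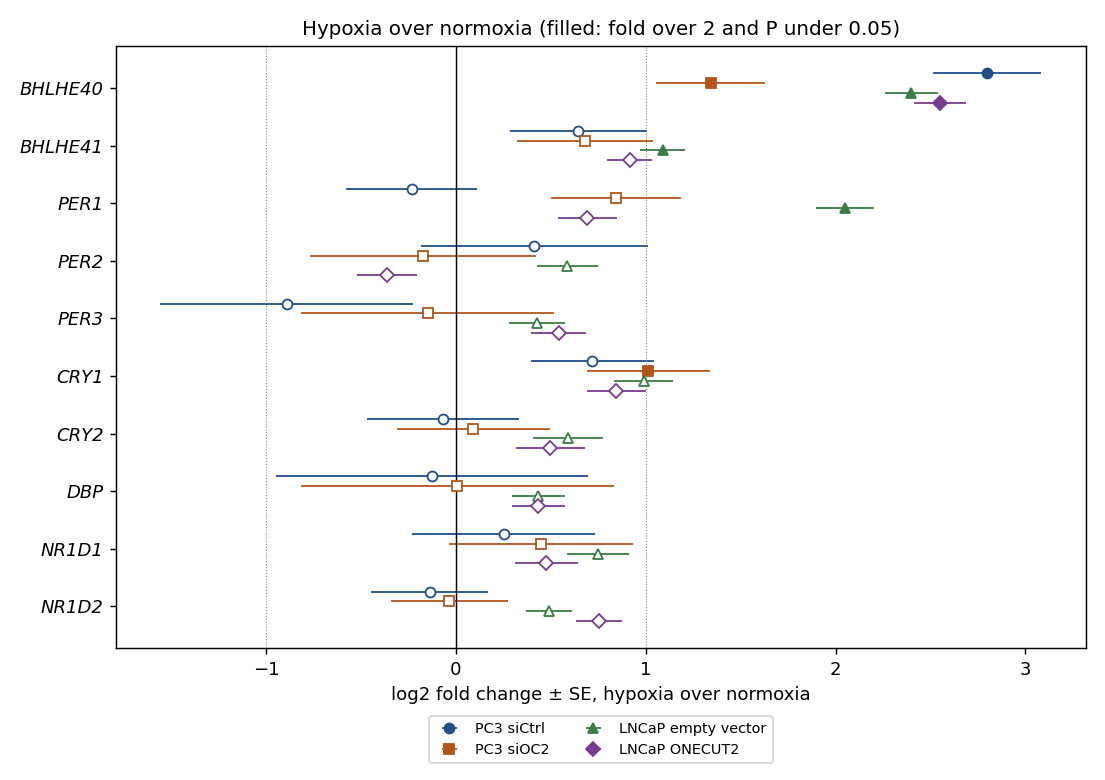
Log2 fold change of hypoxia over normoxia with its SE (horizontal lines) for the 10 genes in the 4 arms, where filled symbols passed the call and dotted lines mark a fold change of 2. BHLHE40 was called in all 4 arms and CRY1 lay between 0.72 and 1.01 in all 4.

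DBP, an activator at D-box elements, was 8.58 to 10.9 RPKM in the 4 normoxic and 12.1 to 14.6 RPKM in the 4 hypoxic LNCaP libraries. NR1D2, a nuclear receptor that represses ARNTL, was 12.1 to 15.7 RPKM in normoxia and 19.8 to 21.3 RPKM in hypoxia in LNCaP cells. NR1D1, its paralog, was 1.73 to 1.91 RPKM in normoxia and 2.4 to 3.49 RPKM in hypoxia. None of the 3 passed the fold limit in LNCaP cells, although normoxic and hypoxic libraries were apart for each. In PC3 cells normoxic and hypoxic libraries of DBP, NR1D1 and NR1D2 overlapped in both arms. Exons of NR1D1 and THRA share 473 bases on opposite strands, 18.0% of the NR1D1 exons, and DBP shares 661 bases with SPHK2, BHLHE40 451 bases (12.8%) with BHLHE40-AS1, PER3 868 bases with UTS2 and BHLHE41 162 bases with SSPN, all on opposite strands. The libraries were stranded, but the strand setting of the counting is not given in the sources used here, so reads of such partners may be mixed.

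Counted by libraries rather than by fold, the hypoxic libraries lay above the normoxic ones for 10 of 10 genes in empty vector LNCaP cells, beside 37.1% of all genes. With ONECUT2 they lay above for 9, beside 42.0%, and below for 1, PER2, beside 26.1%. At an adjusted p under 0.05, 9 of 10 genes passed with the empty vector, all but PER3, beside 32.3% of all genes, and 6 of 10 with ONECUT2, beside 26.9%. In siCtrl PC3 cells the hypoxic libraries lay above for 3 genes (BHLHE40, BHLHE41 and CRY1), beside 22.1%, and below for PER3, beside 32.9%. In siOC2 PC3 cells they lay above for 4 genes, with PER1 as the added one, beside 7.34%. At an adjusted p under 0.05, limma passed 1 gene in siCtrl cells (BHLHE40), beside 0.27% of all genes, and 0 in siOC2 cells, beside 0.00819%, with 3 at an unadjusted P under 0.05, beside 6.71%.

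To see whether ONECUT2 sets the level of these genes, the arm with more ONECUT2 was compared with the arm with less at each oxygen level, which is siCtrl over siOC2 in PC3 and ONECUT2 over empty vector in LNCaP cells. BHLHE41 was about 2-fold higher in siCtrl than in siOC2 PC3 cells at both oxygen levels, and PER1 and CRY1 were lower in siCtrl than in siOC2 cells in hypoxia. In normoxic PC3 cells 1 of the 10 genes was called higher and 0 lower, beside 1.59% and 3.62% of all genes. In hypoxic PC3 cells 1 was called higher and 2 lower, beside 3.95% and 3.55%. In LNCaP cells 0 genes were called by limma at either oxygen level, beside 3.29% of all genes called in either direction in normoxia and 4.47% in hypoxia, with 3 and 2 of the 10 at an unadjusted P under 0.05, beside 24.1% and 28.2%. At an adjusted p under 0.05, limma passed 0 genes in PC3 cells, beside 0.00819% of all genes in normoxia and 0.0901% in hypoxia, with 2 and 3 at an unadjusted P under 0.05, beside 9.2% and 12.1%. The comparisons share libraries with those of oxygen above.

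BHLHE41 in normoxia was 197 and 247 RPKM with siCtrl and 159 (siRNA1) and 72.2 RPKM (siRNA2) with siOC2. In hypoxia it was 379 and 315 RPKM with siCtrl and 180.3 and 163 RPKM with siOC2. The siCtrl libraries were above the siOC2 libraries at both oxygen levels, and siRNA2 had the lowest value at each. The log2 fold change between the arms was 1.04 (SE 0.36, adjusted p = 0.42) in normoxia and 1.01 (SE 0.36, adjusted p = 0.31) in hypoxia. In normoxia the call ended without siRNA2 (0.48) and without siCtrl replicate 2 (0.88), and in hypoxia with upper-quartile scaling (0.94), without siCtrl replicate 1 (0.88) and without siRNA2 (0.94). It ended at both oxygen levels without the 3 shallow libraries, at 1.21. In LNCaP cells the fold change of BHLHE41 with ONECUT2 was 1.02 in normoxia and 0.90 in hypoxia.

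PER1 and CRY1 in hypoxic PC3 cells had log2 fold changes of siCtrl over siOC2 of -1.13 (SE 0.34, adjusted p = 0.24) and -1.02 (SE 0.32, adjusted p = 0.25). All 4 libraries involved in each are given above, and siOC2 was higher than siCtrl in each for both genes. A shallow library, siCtrl hypoxia replicate 2, held the lowest value of both genes, and a shallow library, siRNA1 in hypoxia, the highest. Without the 3 shallow libraries the log2 fold changes were -0.60 for PER1 and -0.47 for CRY1, and neither was called. The relative depth of these was 0.382 and 0.347, and that of the other hypoxic libraries 0.971 (siCtrl) and 0.880 (siOC2). Both calls also ended with a pseudocount of 1 (-0.96 and -0.98), without siCtrl hypoxia replicate 2 alone (-0.75 and -0.73) and without siRNA1 in hypoxia alone (-0.97 and -0.76). In LNCaP cells PER1 with ONECUT2 was 0.51 of its empty vector level in hypoxia, a log2 fold change of -0.97 (adjusted p = 0.0078) just under the fold limit, and CRY1 was 0.95 of it. PER2 in normoxic LNCaP cells was 1.79-fold higher with ONECUT2 (log2 fold change 0.84, adjusted p = 0.024). PER2 in normoxia and PER1 in hypoxia were the genes of the 10 with an adjusted p under 0.05 in LNCaP cells, 1 at each oxygen level, beside 5.26% and 11.5% of all genes.

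**Figure D3:**
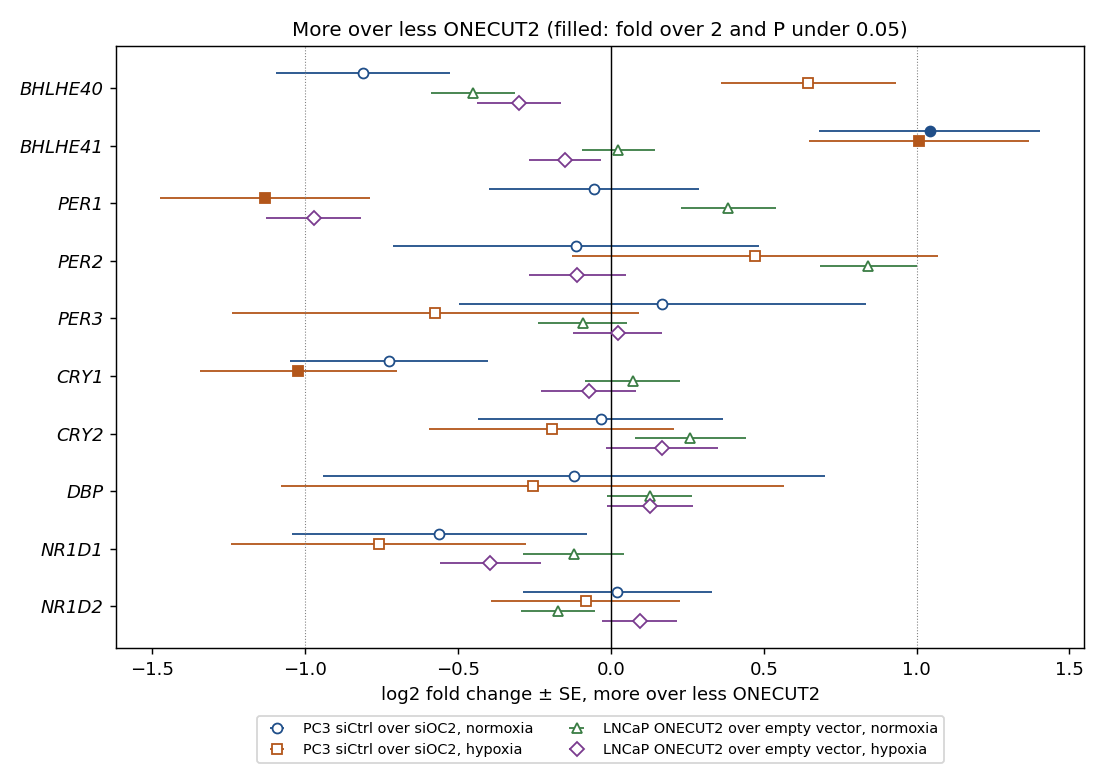
Log2 fold change of the arm with more over the arm with less ONECUT2, with its SE, in normoxia and hypoxia of both lines, with symbols filled where the call was passed and dotted lines at a fold change of 2. BHLHE41 lay at 1.04 and 1.01 in PC3 and at 0.03 and -0.15 in LNCaP cells, and PER1 lay at -1.13 and -0.97 in hypoxia.

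For BHLHE40 the siCtrl PC3 libraries lay below the siOC2 libraries in normoxia (log2 fold change -0.81, adjusted p = 0.43) and above them in hypoxia (0.65, adjusted p = 0.42). The interaction, the response to hypoxia with more minus that with less ONECUT2, was tested directly. For BHLHE40 in PC3 cells it was 1.46 on the log2 scale (SE 0.40, unadjusted P = 0.0065, adjusted p = 1.0), the 1 call among the 10 genes, beside 0.696% of all genes called higher and 0.246% lower. It was 1.44 and no longer past the test without the 3 shallow libraries. At an adjusted p under 0.05, limma passed 0 of the 10 interactions in PC3 cells, beside 0.0% of all genes, with 1 at an unadjusted P under 0.05, beside 1.03%. In LNCaP cells it passed 0, beside 0.244%, with 2 at an unadjusted P under 0.05, beside 16.9%. In LNCaP cells the interaction of BHLHE40 was 0.15 (SE 0.19).

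In LNCaP cells PER1 was the 1 gene of 10 with a called interaction, at -1.36 on the log2 scale (SE 0.22, unadjusted P = 0.00021, adjusted p = 0.058), beside 2.34% of all genes called higher and 1.35% lower. Its adjusted p ranged from 0.031 to 0.25 over the alternatives, and each of them kept the call except the limit on adjusted p. PER2 had an interaction of -0.95 (SE 0.22, unadjusted P = 0.0026, adjusted p = 0.12), just under the fold limit. In PC3 cells the interaction of PER1 was -1.08 (SE 0.48, adjusted p = 1.0) and that of PER2 0.59 (SE 0.84), neither of which passed the test.

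**Figure D4:**
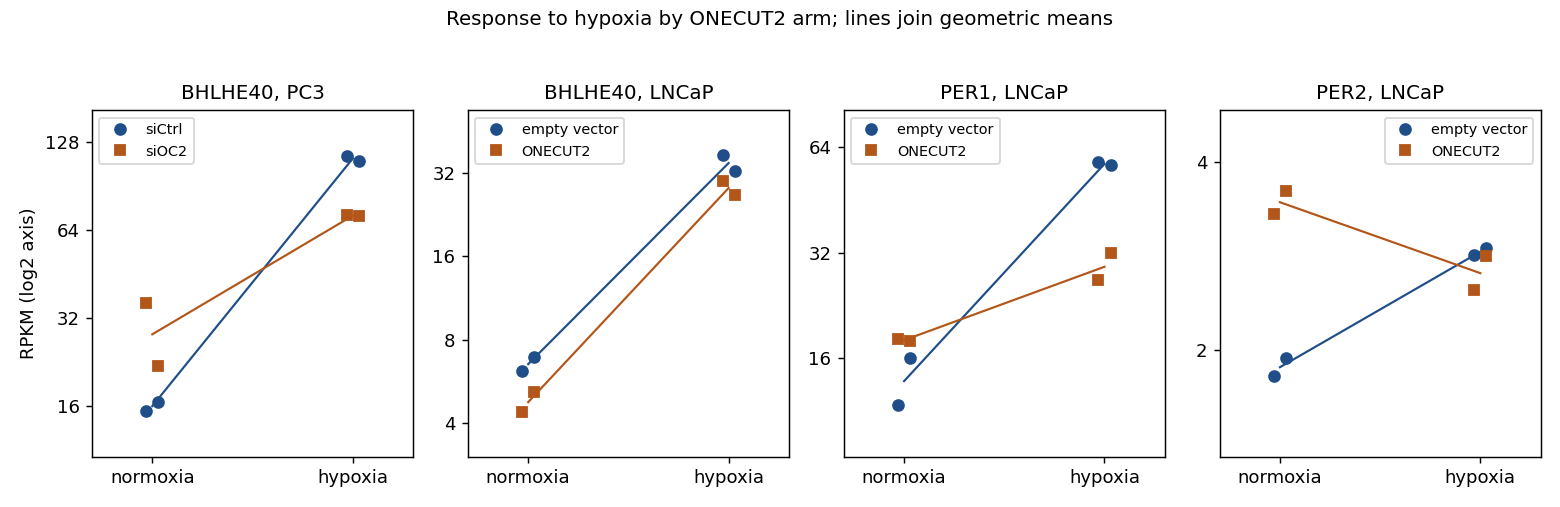
RPKM on a log2 axis in normoxia and hypoxia, with 1 point per library and lines between geometric means, for BHLHE40 in PC3 and LNCaP and PER1 and PER2 in LNCaP cells. The lines cross for BHLHE40 in PC3 and for PER1 and PER2 in LNCaP cells, and run side by side for BHLHE40 in LNCaP cells.

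Of 19 other clock genes, 17 were in the tables, and 14 in PC3 and 16 in LNCaP cells passed the limit on low values. These genes too were chosen with earlier results known. CIART and FBXL21 were not analysed here. In siCtrl PC3 cells 2 were called higher in hypoxia, RORA and NFIL3, in siOC2 cells 1, RORA, and in empty vector LNCaP cells 3, ARNTL, ARNTL2 and RORA, beside 2.23%, 1.11% and 5.6% of all genes. With ONECUT2 in LNCaP cells limma called 0 at a fold over 2, with 7 at an unadjusted P under 0.05, beside 40.6% of all genes, and 5 at an adjusted p under 0.05, beside 26.9%. In the ONECUT2 comparisons 0 were called, beside 3.29% and 4.47% of all genes in normoxic and hypoxic LNCaP cells. In PC3 cells the shares were 1.59% higher and 3.62% lower in normoxia, and 3.95% and 3.55% in hypoxia. The interactions also had 0 calls, beside the shares given above. In LNCaP cells limma passed 3 and 4 at an unadjusted P under 0.05, beside 24.1% and 28.2%, and 3 for the interaction, beside 16.9%. At an adjusted p under 0.05 it passed 0 and 2, beside 5.26% and 11.5%. The median log2 fold change with hypoxia was 0.36 and 0.31 in siCtrl and siOC2 cells and 0.29 and 0.33 in empty vector and ONECUT2 cells.

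RORA, which activates ARNTL through the elements that NR1D1 and NR1D2 bind, was 1.89 and 2.98 RPKM in normoxic and 16.9 and 10.2 RPKM in hypoxic siCtrl PC3 cells. In siOC2 cells it was 4.37 and 2.38 against 18.8 and 8.93 RPKM, and in empty vector LNCaP cells 2.24 and 3.59 against 9.04 and 8.20 RPKM. Hypoxic libraries were above normoxic ones in each arm, with log2 fold changes of 2.42 (SE 0.48, adjusted p = 0.14), 1.97 (SE 0.48, adjusted p = 0.65) and 1.57 (SE 0.21, adjusted p = 0.0014). In siOC2 cells it was 1.44 without the 3 shallow libraries and no longer called. With ONECUT2 in LNCaP cells it was 0.84, under the fold limit.

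ARNTL, the partner of CLOCK, was 15.9 and 14.4 RPKM in normoxia and 34.1 and 32.2 RPKM in hypoxia in empty vector LNCaP cells, a log2 fold change of 1.12 (SE 0.12, adjusted p = 0.0005). With ONECUT2 the log2 fold change of ARNTL was 0.74, under the fold limit. In siCtrl PC3 cells ARNTL was 21.4 and 22.7 RPKM in normoxia and 53.8 and 41.5 RPKM in hypoxia. These libraries did not overlap, but the log2 fold change of 1.10 did not pass the test, whose spread is shared with the siOC2 libraries. In siOC2 cells ARNTL was 32.0 (siRNA1) and 16.6 RPKM (siRNA2) in normoxia and 80.7 and 22.3 RPKM in hypoxia, and the libraries overlapped. ARNTL2, its paralog, had a log2 fold change of 1.05 in empty vector LNCaP cells (SE 0.15, adjusted p = 0.0017). It was under the limit with a pseudocount of 1 RPKM (0.81) or without empty vector hypoxia replicate 1. NFIL3, a repressor at D-box elements, was 1.80 and 2.08 RPKM in normoxic and 7.76 and 5.45 RPKM in hypoxic siCtrl PC3 cells, a log2 fold change of 1.70 (SE 0.34, adjusted p = 0.14). CLOCK was called in none of the 4 arms.

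**Figure D5:**
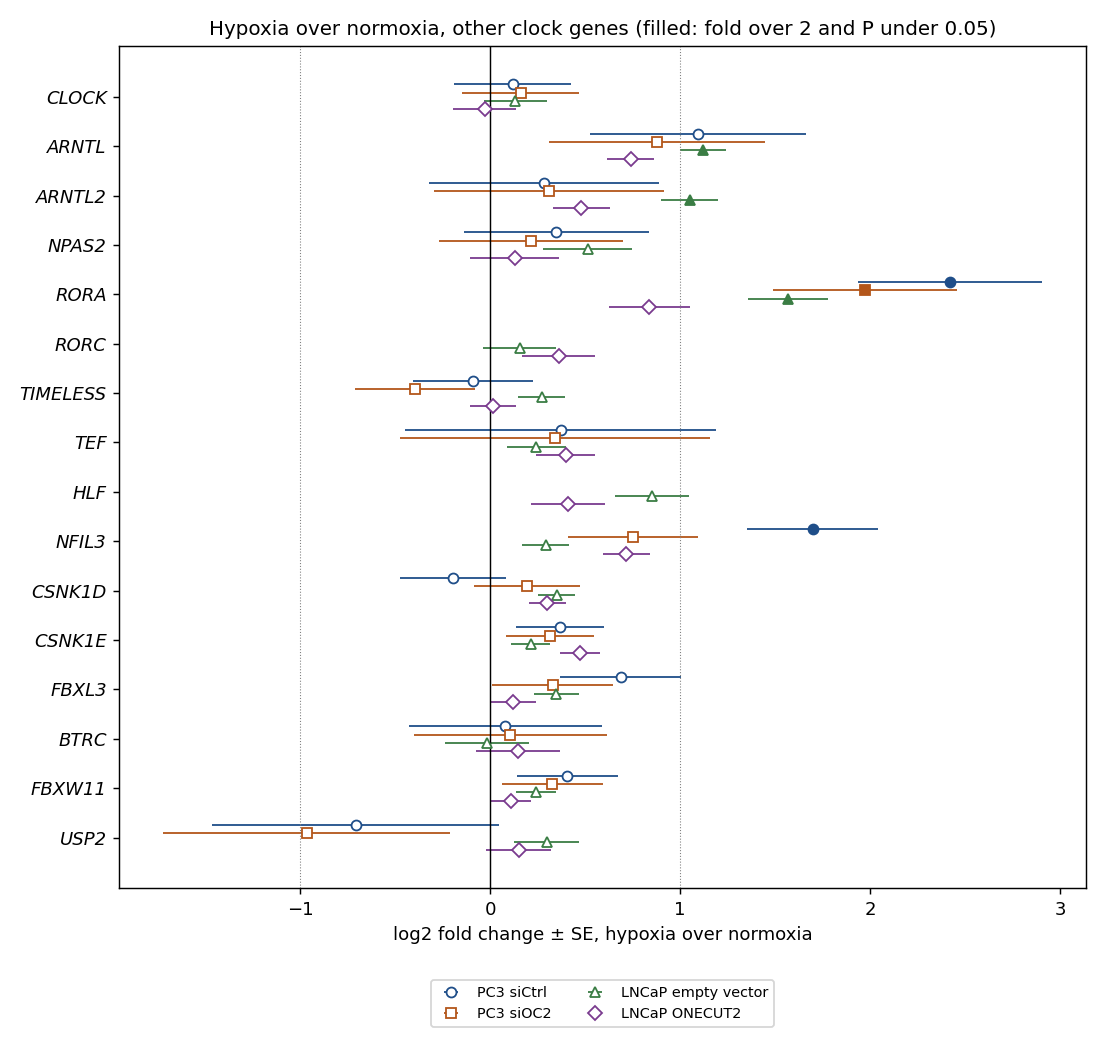
Log2 fold change of hypoxia over normoxia with its SE for the other clock genes that could be tested, in the 4 arms, with filled symbols past the call and dotted lines at a fold change of 2. RORA lay highest, between 0.84 and 2.42, in all 4 arms.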

How the data were processed

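Per the labels and the study's methods, the authors made stranded mRNA libraries, mapped the reads after trimming to hg19 (STAR 2.4.2a) and derived gene RPKM by Cufflinks 2.1.1 from GENCODE gene models. The deposited tables hold 1 RPKM per gene and library. Read counts were not used here, so depth is known only as relative depth. In 4 simulated libraries its largest error was 0.0644%. The simulation drew whole reads over a fixed length per gene, so the error for RPKM from Cufflinks was not tested.

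The RPKM were not scaled again. Genes that reached 1 RPKM in 2 or more libraries of a line (12214 in PC3 and 12283 in LNCaP) were fitted as log2(RPKM + 0.1) with limma 3.58.1 in R 4.3.3, with 4 groups per line, a mean-variance trend and no block. A fold change on this scale understates that of low genes. Tests are 2-sided. With groups of 2 an exact permutation test cannot go below p = 0.333, and no outlier test was possible. In simulated data with 200 genes changed by 2 on the log2 scale, 191 were called in the comparison of siCtrl PC3 cells (with 319 unchanged genes of 12214) and 200 in that of empty vector LNCaP cells (with 35 of 12283). With an adjusted p under 0.05, 88 changed and 9 unchanged genes passed in PC3 and 185 and 7 in LNCaP cells.

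All 10 genes are named, with fold changes and tests for those called. The 10 genes, the other clock genes and the hypoxia-induced genes were chosen with earlier results of these data known. Alternatives were a pseudocount of 1, a limit on low values of 5 RPKM or none, upper-quartile scaling, no trend, adjusted p, only the groups compared, the replicate number as a block and leaving out each library. The crossed block and the fit without 3 shallow libraries were chosen after seeing the data. Promoters were read from GRCh37 and GENCODE v44 lifted to it. ChIP-Seq of the series (12 samples) was left out. Some genes of the marker list are not reported here.

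Replicate numbers come from the labels. Correlations of deviations from group means between same-numbered libraries were 0.62 for siOC2 in normoxia and hypoxia, where the number is the siRNA, -0.19 for siCtrl in normoxia and hypoxia, and 0.27 for empty vector and ONECUT2 in hypoxia.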

Additional observations from a re-analysis of the deposited data

Results flagged for a closer look

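The interaction of oxygen and ONECUT2 had an unadjusted limma P under 0.05 for 3 results, of which the first and the second in the next sentence also passed the fold limit. On the log2 scale the interaction was 1.46 for BHLHE40 in PC3 cells (unadjusted P = 0.0065, adjusted p = 1.0), -1.36 for PER1 in LNCaP cells (unadjusted P = 0.00021, adjusted p = 0.058) and -0.95 for PER2 in LNCaP cells (unadjusted P = 0.0026, adjusted p = 0.12). None of the 3 passed an adjusted p of 0.05.

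In 5 other results the libraries of the groups compared did not overlap within either line, and the direction was opposite in PC3 and LNCaP cells. The difference between the lines was not tested, and the share of all genes with such opposite directions was not counted. PER3 had a log2 fold change of hypoxia over normoxia of -0.89 in siCtrl PC3 and 0.43 in empty vector LNCaP cells. Taken 1 line at a time, hypoxic libraries lay below for 32.9% of all genes in siCtrl PC3 cells. They lay above for 37.1% in empty vector LNCaP cells. With more against less ONECUT2 in normoxia, CRY1 had -0.73 in PC3 and 0.071 in LNCaP cells. In hypoxia BHLHE40 had 0.65 and -0.30, BHLHE41 1.01 and -0.15, and PER2 0.47 and -0.11, in PC3 and LNCaP cells. The shares of all genes with libraries apart in these comparisons of ONECUT2 are not reported here. Some of the changes were small, such as 0.071 for CRY1 and -0.11 for PER2 in LNCaP cells.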

How the results depend on the processing

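Counts of called genes among the 10 changed as follows under other settings, and no value called in the report changed direction. With a pseudocount of 1, 1 gene was called for hypoxia in siOC2 cells (2 in the report) and 1 for siCtrl over siOC2 in hypoxia (3). At an adjusted p under 0.05, 0 were called in siOC2 cells, in siCtrl over siOC2 at either oxygen level and in both interactions, 9 with hypoxia in empty vector and 6 in ONECUT2 LNCaP cells (3 and 1), and 1 each for ONECUT2 over empty vector in normoxia and hypoxia (0 and 0). Without the 3 shallow libraries, 1 was called in siOC2 cells and 0 for siCtrl over siOC2 at either oxygen level and for the PC3 interaction. Upper-quartile scaling called 2 for the PC3 interaction and ended the call of BHLHE41 for siCtrl over siOC2 in hypoxia. It moved the median of all genes from -0.22 to -0.09 for hypoxia in siOC2 cells and from 0.17 to 0.01 for the interaction, and the share of higher among all calls from 32.0% to 45.7% for hypoxia in siOC2 cells, from 30.5% to 43.4% for siCtrl over siOC2 in normoxia and from 73.9% to 49.6% for the PC3 interaction.

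Leaving out 1 library at a time gave 1 to 2 calls for hypoxia in siCtrl cells, 0 to 3 in siOC2 cells, 0 to 1 for siCtrl over siOC2 in normoxia, 1 to 3 in hypoxia and 1 to 2 for the PC3 interaction. In LNCaP cells it gave 3 to 4 for hypoxia with the empty vector, 1 to 2 with ONECUT2, 0 for ONECUT2 over empty vector in normoxia, 0 to 1 in hypoxia and 1 to 2 for the interaction. The libraries whose removal moved a count by over 1.5 times were siCtrl hypoxia replicate 2 (to 2 for hypoxia in siCtrl cells and to 1 for siCtrl over siOC2 in hypoxia), siRNA2 in normoxia and siRNA1 in hypoxia (to 0 and 1 for hypoxia in siOC2 cells), siCtrl normoxia replicate 2 (to 0), and siCtrl hypoxia replicate 1 or siRNA2 in hypoxia (to 2 for the PC3 interaction). In LNCaP cells they were ONECUT2 hypoxia replicate 1 (to 2 for hypoxia with ONECUT2), ONECUT2 hypoxia replicate 2 (to 1 for ONECUT2 over empty vector in hypoxia and to 2 for the interaction) and ONECUT2 normoxia replicate 1 (to 2 for the interaction). The causes of these changes were not tested.

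With the replicate number as a block, the counts were 1, 2, 1, 3 and 1 in the PC3 comparisons and 3, 1, 0, 0 and 1 in the LNCaP comparisons, in the order of the report, as without the block. The block is 1 term shared by all groups of a line, so a pairing by siRNA within the siOC2 groups alone was not tested. With the 2 normoxic siCtrl numbers crossed, 2 were called for the PC3 interaction. Read depth limits genes near 1 RPKM, such as PER2 and PER3 in PC3 cells.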

Other observations

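By the correlation of log2(RPKM + 0.1) over the 8 libraries of each line, the genes most like BHLHE40 among 10947 genes tested in both lines were LOX (r 0.99 in PC3 and 0.99 in LNCaP), SEC61G, TMEM45A, ANKZF1 and P4HA1. LOX codes for a collagen cross-linking oxidase and P4HA1 for a collagen prolyl hydroxylase subunit. Those most like BHLHE41 were S100A10 (r 0.97 and 0.98), TFPI, VEGFA, GDE1 and SEPT7. The 8 libraries of a line share the contrast of oxygen, so these correlations are descriptions.

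Among the other clock genes in hypoxic LNCaP cells, HLF, an activator at D-box elements, was 4.85 and 4.48 RPKM with the empty vector and 2.57 and 2.12 RPKM with ONECUT2. The groups did not overlap, and the log2 fold change of -0.97 (limma, adjusted p = 0.018) lay just under the fold limit.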
